A study of Mus musculus with 11 samples.

Results

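Crypt stem cell and Wnt genes were followed across sorted cells of the mouse duodenal epithelium. The set held 10 genes chosen by name: Wnt3, Lgr5, Ephb2, Lrig1, Axin2, Rnf43, Ascl2, Sox9, Msi1 and Olfm4. All 10 were among the 38283 genes of the count table, and all 10 passed the filter on low counts that left 14332 genes for testing. Epithelium was dissociated, and fluorescent cells and a like number of non-fluorescent cells were collected by flow cytometry. The strain labelled Neurod1-cre-eYFP, in which Cre recombinase under Neurod1 switches on a yellow fluorescent protein, gave 3 NeuroD1 positive and 3 NeuroD1 negative libraries. The strain labelled GluVenus, in which cells that express Gcg, the proglucagon gene, carry Venus fluorescence, gave 3 Glu positive and 2 Glu negative libraries. All mice had standard chow and water freely on a 12 h light and 12 h dark cycle, with no treatment, time point or age named. A Cre reporter marks a cell and its descendants from the moment Cre is made, so a positive cell need not be making Neurod1 when sorted.

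The small intestinal epithelium is renewed by stem cells at the base of the crypts, which are kept in that state by Wnt signals. Wnt ligands bind Frizzled and Lrp receptors, beta-catenin then accumulates, and with Tcf factors it switches on target genes that include Lgr5, Ascl2, Axin2, Rnf43, Ephb2 and Sox9. R-spondins bind Lgr receptors and strengthen the signal by holding back Rnf43 and Znrf3, which otherwise remove Frizzled from the membrane. Enteroendocrine cells, the hormone cells of the gut lining, arise from these stem cells through progenitors that make Neurog3 and then Neurod1.

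Libraries held 2279595 to 5722381 counts, and levels are CPM, read counts scaled to a common library size by the trimmed mean of M values (TMM) unless stated otherwise. The sorts went with their labels: 12 enteroendocrine markers summed to 152400 to 174800 CPM in NeuroD1 positive libraries, against 5579 to 7076 CPM in NeuroD1 negative libraries. They summed to 47780 to 107000 CPM in Glu positive libraries, against 4435 to 5575 CPM in Glu negative libraries. Neurod1 itself had 394 to 540.2 CPM in NeuroD1 positive libraries, against 35.6 to 49.8 CPM in NeuroD1 negative libraries. The mitochondrial ribosomal RNAs mt-Rnr1 and mt-Rnr2 took 27.5% to 33.9% of counts in 5 NeuroD1 libraries, and they are listed at 0 in NeuroD1_negative_6360 and in all 5 Glu libraries. Glu_positive_5254 stood apart from its group, with the lowest level of 8 of the 10 genes and the highest of the other 2, Lgr5 and Olfm4. In bulk libraries such as these, fewer cells of a type and less RNA per cell cannot be told apart. Whether the library numbers stand for separate animals is not stated in the labels, and p-values therefore weigh differences against the spread of these libraries alone, which may be technical.

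The stretches upstream of 3 of the genes are shown because those genes anchor the results: Wnt3 with the largest difference between positive and negative cells, Axin2 as the feedback gene most used to read Wnt signalling, and Olfm4 as the most abundant. Each line gives the 250 bases before the transcript start, 5′ to 3′ on the gene's strand (plus for all 3), from RefSeq on GRCm38.p6, with CpG dinucleotides in capitals. Wnt3 is read from chr11:103773925-103774174, Axin2 from chr11:108920099-108920348 and Olfm4 from chr14:80000052-80000301.
Wnt3: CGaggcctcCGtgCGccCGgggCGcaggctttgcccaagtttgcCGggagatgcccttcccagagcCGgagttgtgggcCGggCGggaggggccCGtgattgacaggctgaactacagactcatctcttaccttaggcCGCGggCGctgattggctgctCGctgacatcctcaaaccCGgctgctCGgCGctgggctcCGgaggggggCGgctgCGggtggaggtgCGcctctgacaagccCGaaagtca
Axin2: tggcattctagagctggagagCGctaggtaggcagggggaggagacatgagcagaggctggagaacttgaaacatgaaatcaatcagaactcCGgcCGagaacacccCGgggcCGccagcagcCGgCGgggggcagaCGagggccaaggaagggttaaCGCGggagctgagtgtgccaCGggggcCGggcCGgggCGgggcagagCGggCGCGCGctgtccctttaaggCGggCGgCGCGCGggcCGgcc
Olfm4: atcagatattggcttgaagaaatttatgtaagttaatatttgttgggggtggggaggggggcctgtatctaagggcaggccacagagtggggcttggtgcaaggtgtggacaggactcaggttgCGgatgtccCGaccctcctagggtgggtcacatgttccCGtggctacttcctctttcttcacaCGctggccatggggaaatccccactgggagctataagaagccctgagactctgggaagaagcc
The Wnt3 stretch held 22 CpG dinucleotides and was 68% G or C, and the Axin2 stretch held 24 and was 69.2% G or C. The Olfm4 stretch held 4 and was 54% G or C, beside a median of 6 and 52.4% over 32851 promoters of the same length. RefSeq promoters were matched for 7 of the 10 genes, and not for Lgr5, Sox9 and Msi1. In 300-base windows, reaching 50 bases past the start, neither CTTTGA, a core bound by Tcf factors, nor CAGATG, an E-box that Neurod1 can bind, was present on either strand for any of the 7. These letters occurred in 16% and 17.2% of all 32851 windows, and their absence here says nothing about the factors.

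**Figure D1:**
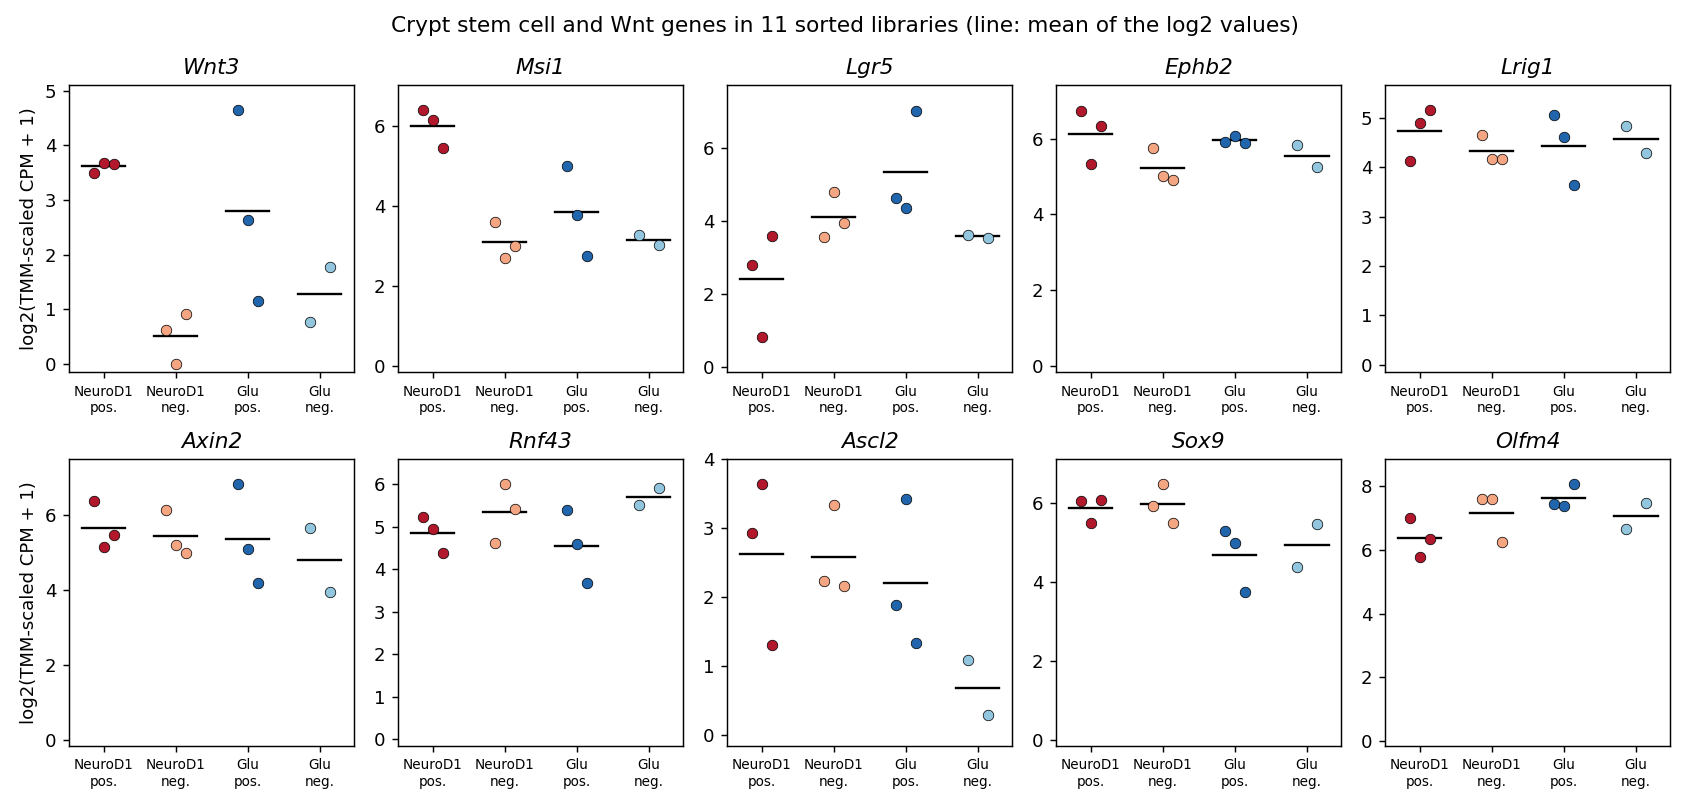
Level of each of the 10 genes in the 11 libraries, as log2 of TMM-scaled CPM plus 1, by sorted population. Each point is 1 library, and the line is the mean of the log2 values. Wnt3 and Msi1 separate NeuroD1 positive from NeuroD1 negative libraries without overlap, and the other 8 genes overlap there. The share of all genes that separate without overlap was not counted for any comparison.

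NeuroD1 positive cells were first set against NeuroD1 negative cells, which asks how the Neurod1 lineage differs from the non-fluorescent cells. Those non-fluorescent cells were not epithelium alone, since immune and stromal markers were found in them (sums below). Of the 10 genes, 2 rose in NeuroD1 positive cells, the ligand gene Wnt3 and the RNA-binding protein gene Msi1, and none fell. Over all genes tested, 14.2% were called in this comparison, 6.57% higher and 7.61% lower, where called means an adjusted p (Benjamini-Hochberg) under 0.05. The median log2 fold change of the 10 genes was 0.25, beside 0.02 for all genes.

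Wnt3 (chromosome 11, 103774150 to 103817957, plus strand, GRCm38) encodes a Wnt ligand that Paneth cells are known to supply to crypt stem cells in the mouse. It had 10.3, 11.8 and 11.7 CPM in the libraries NeuroD1_positive_6360, NeuroD1_positive_6361 and NeuroD1_positive_6362, against 0.529, 0 and 0.873 CPM in NeuroD1_negative_6360, NeuroD1_negative_6361 and NeuroD1_negative_6362, and values of these groups keep that order below. These rest on 114 counts in the positive and 5 counts in the negative group. Every positive library was above every negative one, and the positive libraries lay close together, at 11.3 ± 0.85 CPM (SD, n = 3). The log2 fold change was 4.44 ± 1.12 (SE), with an adjusted p of 0.0112 in edgeR's quasi-likelihood test. Without NeuroD1_negative_6360 the fold change was 4.53 and the adjusted p 0.0552, and a stricter count filter removed the gene from testing. The 8 Paneth cell markers summed to 124 to 260 CPM in NeuroD1 positive libraries, against 569 to 2752 CPM in NeuroD1 negative libraries, and 6 of the 8 fell. The part of Paneth cells in the Wnt3 levels was not tested.

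Msi1 (chromosome 5, 115429599 to 115455698, plus strand) encodes Musashi 1, an RNA-binding protein first known from neural progenitors and used as a mark of crypt base cells. It had 82.3, 70.2 and 42.6 CPM in NeuroD1 positive libraries, against 11.1, 5.52 and 6.98 CPM in NeuroD1 negative libraries. The lowest positive library was well above the highest negative one. The log2 fold change of 3.01 ± 0.60 (SE) had an adjusted p of 0.00216 in edgeR, and it stayed between 2.81 and 3.36 with each of the 6 libraries left out, past the threshold each time. Musashi 1 is also made in neural tissue. Of the enteric neuron and glia markers, S100b, Sox10 and Gfap were at 0 in all NeuroD1 positive libraries, and the 6 markers summed to 4.41 to 6.10 CPM there, against 2.18 to 9.52 CPM in NeuroD1 negative libraries. The part of neural cells in the Msi1 levels was not tested.

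The 3 surface proteins did not pass. Lgr5, the R-spondin receptor that defines the crypt base columnar stem cell, had 5.88, 0.763 and 11.02 CPM in NeuroD1 positive libraries, against 10.8, 26.6 and 14.4 CPM in NeuroD1 negative libraries. NeuroD1_positive_6362 lay inside the range of the negative libraries, and the log2 fold change of -1.49 ± 0.78 had an adjusted p of 0.237 in edgeR. Ephb2, a receptor for ephrin B ligands that helps to sort cells along the crypt, had 106, 38.9 and 80.1 CPM in NeuroD1 positive libraries, against 52.7, 31.1 and 29.2 CPM in NeuroD1 negative libraries. Only NeuroD1_positive_6361 reached into the negative range, and the log2 fold change was 0.98 ± 0.42 with an adjusted p of 0.133 in edgeR. Lrig1, which dampens ErbB receptor signalling and marks slowly dividing stem cells, had 16.5, 28.6 and 34.5 CPM in NeuroD1 positive libraries, against 24.0, 17.1 and 17.0 CPM in NeuroD1 negative libraries. NeuroD1_positive_6360 was below all 3 negative libraries, and the Lrig1 log2 fold change was 0.45 ± 0.51.

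The feedback inhibitors and target genes also overlapped between the NeuroD1 groups. Axin2, a scaffold of the complex that destroys beta-catenin and a standard readout of Wnt signalling, had 81.9, 33.96 and 43.2 CPM in NeuroD1 positive libraries, against 68.2, 35.6 and 30.6 CPM in NeuroD1 negative libraries. For Axin2 the log2 fold change was 0.23 ± 0.61, and NeuroD1_positive_6360 and NeuroD1_negative_6360 were the high ones. Rnf43, the ligase that removes Frizzled receptors, had 36.4, 29.8 and 19.9 CPM in NeuroD1 positive libraries, against 23.4, 62.8 and 41.9 CPM in NeuroD1 negative libraries. The negative libraries were the more spread, and the Rnf43 log2 fold change was -0.57 ± 0.50.

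Ascl2, a transcription factor needed for stem cell identity, was measured on few counts, 55 in NeuroD1 positive and 47 in NeuroD1 negative libraries, at 6.61, 11.4 and 1.48 CPM in NeuroD1 positive libraries, against 3.70, 9.04 and 3.49 CPM in NeuroD1 negative libraries. Sox9, a transcription factor of the lower crypt that is also made in mature Paneth, enteroendocrine and tuft cells, had 65.4, 44.3 and 66.5 CPM in NeuroD1 positive libraries, against 59.9, 88.4 and 44.5 CPM in NeuroD1 negative libraries. The Sox9 ranges overlapped almost wholly, and the log2 fold change was -0.13 ± 0.46 with an adjusted p of 0.910 in edgeR. Olfm4, a secreted glycoprotein that is abundant in crypt base columnar cells, had 127, 53.8 and 79.7 CPM in NeuroD1 positive libraries, against 192, 193 and 75.5 CPM in NeuroD1 negative libraries. Its log2 fold change was -0.83 ± 0.41 with an adjusted p of 0.210 in edgeR, and NeuroD1_negative_6362 lay inside the range of the positive libraries. The 18 proliferation genes summed to 458 to 541 CPM in NeuroD1 positive libraries, against 805 to 1066 CPM in NeuroD1 negative libraries, with 1 of 18 called, and their part in these differences was not tested.

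**Figure D2:**
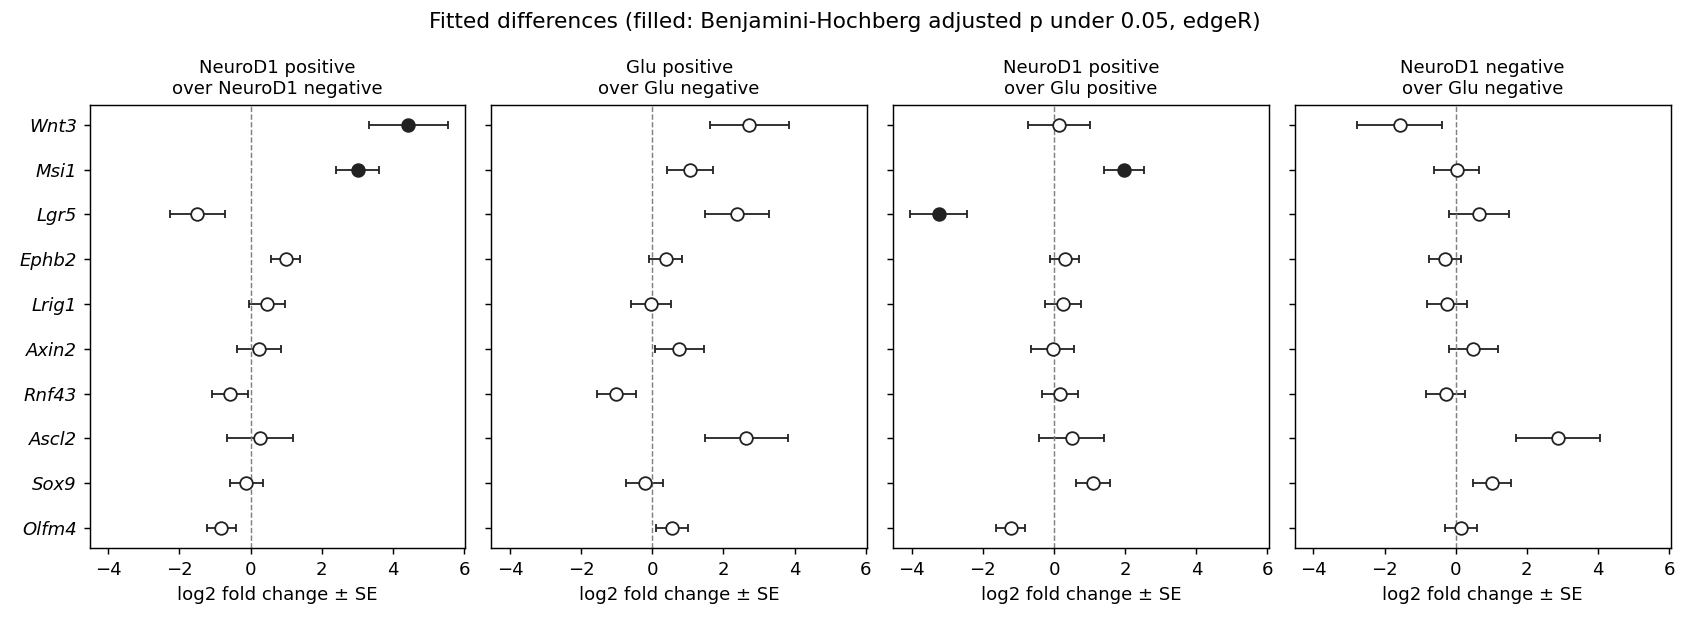
Log2 fold change ± SE of the 10 genes in 4 comparisons, each with the group named first over the second. Filled points passed an adjusted p under 0.05 in edgeR. Wnt3 at 4.44 and Msi1 at 3.01 stand out in the NeuroD1 comparison, and Lgr5 at -3.24 between the positive populations.

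The second comparison set cells that make proglucagon, which marks L cells and related hormone cells, against the non-fluorescent cells of their strain. None of the 10 genes passed in edgeR, where 6.64% of all genes were called, 4.22% higher and 2.41% lower. At an unadjusted p under 0.05 there were 3, Lgr5, Ascl2 and Wnt3, and 23.4% of all genes reached that level. DESeq2 called 1 of the 10, Lgr5, and so did edgeR with no filter. The median log2 fold change of the 10 genes was 0.66, beside 0.12 for all genes.

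Wnt3 had 23.9, 5.17 and 1.21 CPM in the libraries Glu_positive_4665, Glu_positive_5160 and Glu_positive_5254, against 0.700 and 2.43 CPM in Glu_negative_4665 and Glu_negative_5254, the order kept for these groups below. Glu_positive_4665 and Glu_positive_5160 were above both negative libraries, and Glu_positive_5254 lay between them. The log2 fold change was 2.73 ± 1.12 with an adjusted p of 0.150 in edgeR, and 1.04 without Glu_positive_4665. Msi1 had 30.8, 12.7 and 5.76 CPM in Glu positive libraries, against 8.68 and 7.08 CPM in Glu negative libraries, with the positive libraries in the same order as for Wnt3. Its log2 fold change was 1.07 ± 0.65 with an adjusted p of 0.334 in edgeR.

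Lgr5 had 23.8, 19.3 and 129.5 CPM in Glu positive libraries, against 11.2 and 10.6 CPM in Glu negative libraries. All 3 positive libraries were above both negative ones, and Glu_positive_5254 was far above the rest. The log2 fold change was 2.39 ± 0.90 with an adjusted p of 0.118 in edgeR, and without Glu_positive_5254 it was 0.99 with an adjusted p of 0.497. In that library 18 proliferation genes summed to 1304 CPM, against 789 and 590 CPM in the other 2 Glu positive libraries and 695 and 670 CPM in the Glu negative ones. Its 10 immune markers summed to 1177 CPM, beside 260 and 320 CPM in the other Glu positive libraries and 1457 and 1318 CPM in Glu negative libraries. The part of these in the Lgr5 level was not tested.

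Ephb2 had 58.8, 66.5 and 57.9 CPM in Glu positive libraries, against 56.3 and 37.4 CPM in Glu negative libraries, so that the groups did not overlap but differed by a log2 fold change of 0.38 ± 0.46. Ascl2 had 2.71, 9.65 and 1.52 CPM in Glu positive libraries, against 1.12 and 0.221 CPM in Glu negative libraries. That difference, a log2 fold change of 2.64 ± 1.17 with an adjusted p of 0.181 in edgeR, set 52 counts in the positive group against 9 in the negative group. Rnf43 went the other way, with 40.7, 23.1 and 11.8 CPM in Glu positive libraries, against 44.1 and 58.8 CPM in Glu negative libraries. Its groups did not overlap either, and the log2 fold change of -1.02 ± 0.55 had an adjusted p of 0.273 in edgeR. The share of all genes without overlap was not counted.

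The other 4 genes overlapped in the Glu comparison. Axin2 had 111, 33.1 and 17.3 CPM in Glu positive libraries, against 49.2 and 14.4 CPM in Glu negative libraries, with Glu_positive_4665 and Glu_negative_4665 the highest. Sox9 had 38.3, 31.0 and 12.4 CPM in Glu positive libraries, against 19.9 and 43.6 CPM in Glu negative libraries. Lrig1 had 32.3, 23.4 and 11.5 CPM in Glu positive libraries, against 27.6 and 18.6 CPM in Glu negative libraries. Of the Glu positive libraries, Glu_positive_4665 was the highest and Glu_positive_5254 the lowest for each of these 3 genes. Olfm4 had 173, 167 and 265 CPM in Glu positive libraries, against 101 and 175 CPM in Glu negative libraries, and its log2 fold change was 0.55 ± 0.46.

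Whether the positive over negative difference itself differed between strains was tested as an interaction. None of the 10 genes passed in edgeR, where 0.112% of all genes did, 0.0907% with a positive and 0.0209% with a negative term. At an unadjusted p under 0.05 there were 3 of the 10 and 10.9% of all genes. Lgr5 had the largest term, -3.89 ± 1.19 with an adjusted p of 0.241 in edgeR, and DESeq2 and edgeR with no filter each called it. Without Glu_positive_5254 the Lgr5 term was -2.48. The term was 1.94 ± 0.84 for Msi1, with an adjusted p of 0.412, and -1.38 ± 0.62 for Olfm4, with an adjusted p of 0.428 in edgeR. For Wnt3 it was 1.71 ± 1.48 with an adjusted p of 0.707 in edgeR, so the call in one strain and not in the other does not show that the strains differ.

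Between the positive populations, 2 of the 10 genes were called, Msi1 higher and Lgr5 lower in NeuroD1 positive than in Glu positive cells, where 8.13% of all genes were called, 3.18% higher and 4.95% lower. Strain, reporter and any batch cannot be told apart in this comparison. All 3 NeuroD1 positive libraries had less Lgr5 than any Glu positive library, at 5.89 ± 5.13 CPM against 57.5 ± 62.4 CPM (SD, n = 3 each). The log2 fold change was -3.24 ± 0.81 with an adjusted p of 0.0183 in edgeR. Without Glu_positive_5254 it was -1.83 with an adjusted p of 0.144, and the call was also lost without NeuroD1_positive_6360 (adjusted p 0.0759), without NeuroD1_positive_6361 (0.0685) and with limma voom (0.0684). The 18 proliferation genes summed to 458 to 541 CPM in the NeuroD1 positive libraries, against 590 to 1304 CPM in the Glu positive libraries, and their part in the Lgr5 difference was not tested. Msi1 averaged 65.0 ± 20.3 CPM in the NeuroD1 positive group and 16.4 ± 12.9 CPM in the Glu positive group (SD, n = 3 each), without overlap. Its log2 fold change was 1.96 ± 0.57 with an adjusted p of 0.0393 in edgeR. That call was lost without NeuroD1_positive_6360 (adjusted p 0.139), NeuroD1_positive_6361 (0.126), NeuroD1_positive_6362 (0.0572), Glu_positive_5254 (0.0784) or Glu_positive_5160 (0.108), with library totals (0.146) and with the compared groups alone (0.0809).

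Olfm4 and Sox9 separated the positive populations without overlap and did not pass. How many of all genes separated them without overlap was not counted. Olfm4 averaged 86.7 ± 37.0 CPM in the NeuroD1 positive group and 202 ± 55.1 CPM in the Glu positive group (SD, n = 3 each), with a log2 fold change of -1.22 ± 0.41 and an adjusted p of 0.0742 in edgeR. With library totals for scaling its adjusted p was 0.0354, and with no filter 0.0208. Sox9 averaged 58.7 ± 12.5 CPM in the NeuroD1 positive group and 27.3 ± 13.3 CPM in the Glu positive group (SD, n = 3 each), with a log2 fold change of 1.102 ± 0.47 and an adjusted p of 0.156 in edgeR. Wnt3 averaged 11.3 ± 0.85 CPM in the NeuroD1 positive group and 10.1 ± 12.1 CPM in Glu positive cells, so that the means were close and the Glu libraries much more spread. The remaining 5 genes overlapped, with log2 fold changes of -0.03 to 0.49, and the sign for Axin2 turned with upper quartile factors. The signs for Ephb2, Lrig1, Rnf43 and Wnt3 turned with library totals, under which the median of all genes was -0.51 instead of -0.14.

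Between the negative populations, none of the 10 genes was called in edgeR, DESeq2 or limma voom, where edgeR called 0.488% of all genes, 0.363% higher and 0.126% lower. Ascl2 alone was under an unadjusted p of 0.05, where 9.04% of all genes were, with 5.41 ± 3.14 CPM in NeuroD1 negative cells (SD, n = 3) and 1.12 and 0.221 CPM in Glu negative libraries. Its log2 fold change was 2.87 ± 1.18 with an adjusted p of 0.444 in edgeR. Sox9 was also higher in every NeuroD1 negative library than in either Glu negative one, at 64.3 ± 22.2 CPM (SD, n = 3) against 19.9 and 43.6 CPM, with an adjusted p of 0.596 in edgeR. Msi1 averaged 7.87 ± 2.89 CPM in NeuroD1 negative cells (SD, n = 3), against 8.68 and 7.08 CPM in Glu negative libraries.

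Within each population the genes were ordered by CPM per kb of exon, a scale on which genes of different length can be compared. Olfm4 was first in all 4, at 29.3 ± 12.5 CPM per kb in NeuroD1 positive and 51.9 ± 22.8 in NeuroD1 negative cells (SD, n = 3 each), and at 68.2 in Glu positive and 46.6 in Glu negative cells. In each population its lowest library stood above every library of the other 9 genes. In NeuroD1 positive cells Sox9 (14.2 CPM per kb), Msi1 (11.2) and Axin2 (9.63) followed, with overlapping libraries, then Ephb2 (5.94), Lrig1 (4.76), Rnf43 (4.37), Ascl2 (4.01) and Wnt3 (3.66), whose libraries also overlapped. Lgr5 was last there, at 0.574 ± 0.50 CPM per kb (SD, n = 3). In NeuroD1 negative cells Msi1 was ninth at 1.36 CPM per kb and Wnt3 last at 0.152 CPM per kb, below Lgr5 at 1.68 CPM per kb, whose libraries overlapped those of Msi1. In Glu positive cells the other 9 genes lay between 2.83 CPM per kb for Msi1 and 9.78 CPM per kb for Axin2, and neighbours in that order were not separated beyond the spread of the libraries. In Glu negative cells Rnf43 (7.85 CPM per kb) and Sox9 (7.67) came after Olfm4, and Wnt3 (0.509) and Ascl2 (0.413) were last.

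**Figure D3:**
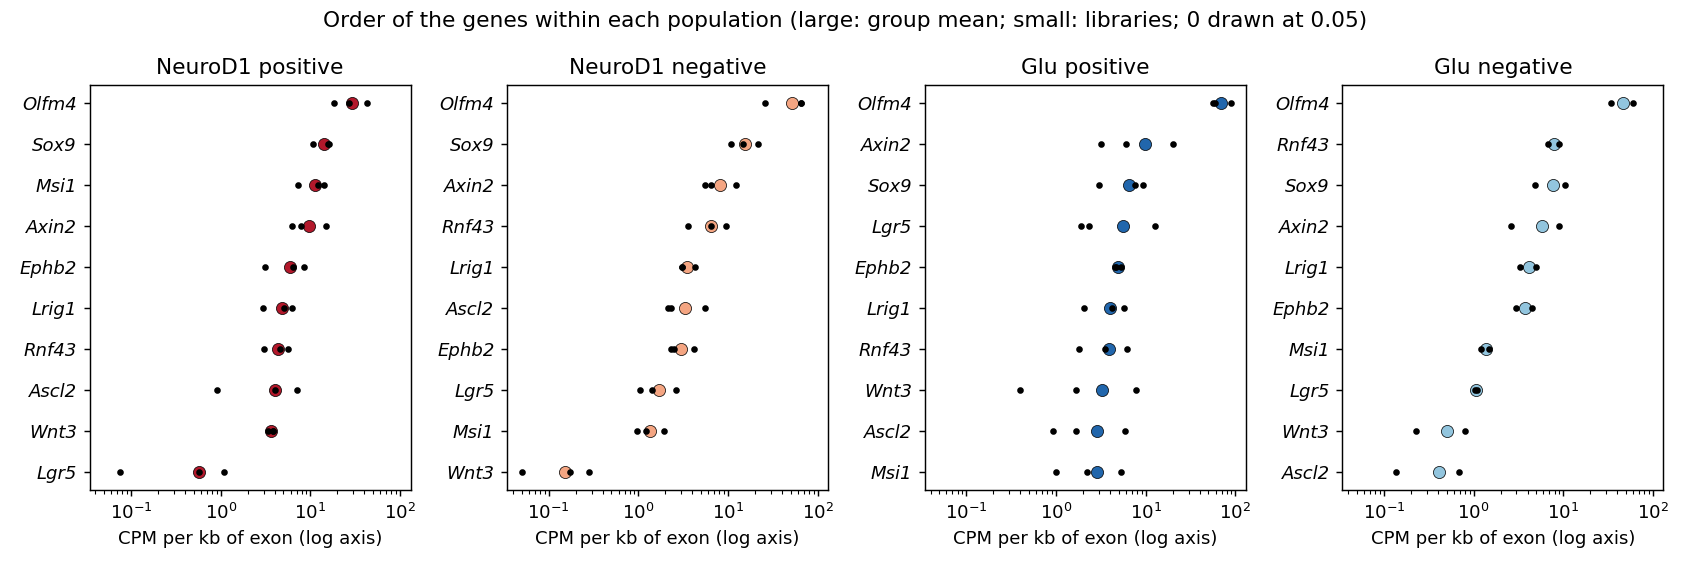
CPM per kb of exon on a log axis for the 10 genes in each population, ordered by the group mean (large points), with the libraries as small points and a value of 0 drawn at 0.05. Olfm4 leads in all 4 populations, while Lgr5 is last in NeuroD1 positive cells and Wnt3 is last in NeuroD1 negative cells.

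Genes whose pattern over the 11 libraries was most like that of the called genes were found by the root mean square difference of log2(CPM + 1), each gene centred on its own mean, among 6716 candidate genes (6717 for Wnt3) with an average log2 CPM of at least 4. For Wnt3 the nearest were Olfm1, at a difference of 0.34, Trim62 at 0.42 and Rgs2 at 0.51, set against a spread of 1.56 for Wnt3 itself. For Msi1 they were Fmo1 at 0.40, Itm2c at 0.40 and Tspan1 at 0.46, with a spread of 1.39 (SD). For Lgr5, Ccdc50 lay at 0.73 and Strn at 0.75, with a spread of 1.499. The libraries share the 4 groups and the same sorts, so these likenesses only describe the pattern.

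The rest of the pathway was read from lists of named genes. Of 19 Wnt ligand genes 5 passed the filter, and besides Wnt3 only Wnt11 was called in the NeuroD1 comparison, on 1 count in NeuroD1 positive libraries against 34 counts in NeuroD1 negative libraries. The ratio was 0.0291 with an exact (Clopper-Pearson) 95% interval of 0.000716 to 0.174 that covers counting error only. The edgeR adjusted p of 0.0477 was lost with limma voom (0.114), with the replicate block (0.0506) and with each of the 6 libraries left out (0.0634 to 0.170). In the Glu comparison Wnt11 was called lower on 2 counts in Glu positive against 65 in Glu negative libraries, but those were nearly all in Glu_negative_5254, and without it the log2 fold change was 0.13. That call was also lost with limma voom, with the replicate block and with each Glu positive library left out. In NeuroD1 positive cells 12 of the 19 ligands were at 0, and in NeuroD1 negative cells 9, with Wnt3a at 0 in both. Neither of 2 Wnt secretion genes, Porcn and Wls, was called.

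Among 12 receptor genes tested, only Fzd5, a Frizzled receptor of the crypt, passed in the NeuroD1 comparison. It had 97.0, 112 and 116 CPM in NeuroD1 positive libraries, against 243, 209 and 268 CPM in NeuroD1 negative libraries, with a log2 fold change of -1.15 ± 0.37 and an adjusted p of 0.0456 in edgeR. The groups did not overlap, but leaving out any 1 of the 6 libraries, or using limma voom, took the adjusted p above 0.05. In the Glu comparison the co-receptor gene Lrp6 was the 1 receptor gene called. It had 245, 158 and 473 CPM in Glu positive libraries, against 109 and 89.8 CPM in Glu negative libraries, with a log2 fold change of 1.55 ± 0.42 and an adjusted p of 0.0309 in edgeR. Its value without Glu_positive_5254 was 1.02 with an adjusted p of 0.0573, and without Glu_negative_5254 or Glu_negative_4665 the adjusted p was 0.254 or 0.178.

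Among 7 inhibitor genes tested, Rnf43 included, only the secreted inhibitor gene Sfrp5 passed in the NeuroD1 comparison. It had 33.8, 37.0 and 28.2 CPM in NeuroD1 positive libraries, against 1.41, 6.53 and 3.93 CPM in NeuroD1 negative libraries. The log2 fold change was 3.12 ± 0.88 with an adjusted p of 0.0220 in edgeR, lost without NeuroD1_negative_6360 (adjusted p 0.113), NeuroD1_negative_6362 (0.0772), NeuroD1_positive_6360 (0.0555) or NeuroD1_positive_6361 (0.0618). None of 15 genes of signal transduction in the cytoplasm, Axin2 included, was called in either strain.

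Among 11 nuclear factors and cofactors tested in the NeuroD1 comparison, 1 rose and 2 fell. Bcl9, which ties beta-catenin to its coactivators, had 156, 240 and 206 CPM in NeuroD1 positive libraries, against 30.1, 90.4 and 55.4 CPM in NeuroD1 negative libraries, a log2 fold change of 1.78 ± 0.45 with an adjusted p of 0.0106 in edgeR (0.0706 without NeuroD1_negative_6360). Tle4, a Groucho corepressor, had 18.4, 9.16 and 10.2 CPM in NeuroD1 positive libraries, against 69.6, 31.1 and 68.1 CPM in NeuroD1 negative libraries, a log2 fold change of -2.17 ± 0.47 with an adjusted p of 0.00384 in edgeR. Tcf7, a Tcf factor that T cells also make in quantity, had 2.57, 0.763 and 2.33 CPM in NeuroD1 positive libraries, against 18.3, 39.2 and 14.8 CPM in NeuroD1 negative libraries, a log2 fold change of -3.62 ± 0.72 with an adjusted p of 0.00198 in edgeR. The 10 immune markers summed to 13.95 to 71.6 CPM in NeuroD1 positive libraries, against 391 to 647 CPM in NeuroD1 negative libraries, with all 10 called lower, and their part in the Tcf7 difference was not tested.

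Of 14 Wnt target genes of the crypt that were tested, genes of the set included, 1 passed in the NeuroD1 comparison. The genes of the set in this list are those already reported above, so the 14 are not a separate count. Cd44, an adhesion receptor of crypt cells, had 316, 233 and 314 CPM in NeuroD1 positive libraries, against 106, 162 and 102 CPM in NeuroD1 negative libraries. For Cd44 the log2 fold change was 1.22 ± 0.39 with an adjusted p of 0.0413 in edgeR, and the adjusted p was above 0.05 with RLE factors, library totals, DESeq2 and 5 of the 6 single libraries left out, all but NeuroD1_negative_6361. None of 13 other genes of crypt base columnar cells that were tested, Smoc2, Prom1 and Slc12a2 among them, was called in either strain. Of 3 reserve stem cell genes tested, Hopx, a homeodomain-only protein, rose, and Bmi1 and Tert did not pass. Hopx had 144, 122 and 125 CPM in NeuroD1 positive libraries, against 24.2, 22.6 and 25.3 CPM in NeuroD1 negative libraries, a log2 fold change of 2.44 ± 0.45 with an adjusted p of 0.00101 in edgeR.

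Among 10 relatives of the 10 genes that were tested, 1 rose and 1 fell in the NeuroD1 comparison. Olfm1, a neuronal relative of Olfm4, had 82.6, 69.1 and 66.3 CPM in NeuroD1 positive libraries, against 5.64, 7.03 and 13.1 CPM in NeuroD1 negative libraries, a log2 fold change of 3.10 ± 0.62 with an adjusted p of 0.00225 in edgeR. Lrig3, a relative of Lrig1, had 5.51, 1.91 and 2.54 CPM in NeuroD1 positive libraries, against 15.3, 8.03 and 26.6 CPM in NeuroD1 negative libraries, a log2 fold change of -2.33 ± 0.76 with an adjusted p of 0.0471 in edgeR. The Lrig3 call was lost with limma voom and with 5 of the 6 single libraries left out, all but NeuroD1_negative_6361. Lgr4, a relative of Lgr5, had 46.3, 51.1 and 58.3 CPM in NeuroD1 positive libraries, against 53.6, 65.3 and 66.8 CPM in NeuroD1 negative libraries, with an adjusted p of 0.727 in edgeR. Msi2, a relative of Msi1, had 222, 288 and 226 CPM in NeuroD1 positive libraries, against 126, 117 and 109.6 CPM in NeuroD1 negative libraries, which did not overlap but gave an adjusted p of 0.0764 in edgeR.

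Of 2 ephrin B ligand genes tested, only Efnb2, a ligand of the receptor Ephb2, was called in the NeuroD1 comparison, and it fell. It had 22.4, 10.7 and 11.9 CPM in NeuroD1 positive libraries, against 107, 67.3 and 128 CPM in NeuroD1 negative libraries, a log2 fold change of -2.76 ± 0.50 with an adjusted p of 0.000895 in edgeR. In the Glu strain it was also lower in every positive library, at 18.2, 61.3 and 26.1 CPM in Glu positive libraries against 69.8 and 100.2 CPM in Glu negative libraries, but did not pass, with a log2 fold change of -1.28 ± 0.51 and an adjusted p of 0.139 in edgeR. The median log2 fold change of the 2 ligand genes in the NeuroD1 comparison was -0.69, so the gene other than Efnb2 pointed upward. The 3 ephrin B ligand genes listed summed to 31.6 to 109.5 CPM in NeuroD1 positive libraries. In NeuroD1 negative libraries they summed to 86.9 to 154.5 CPM, so the ranges overlapped. Ephrin B ligands are known to be made by cells above the crypt base, in the opposite gradient to Ephb2.

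**Figure D4:**
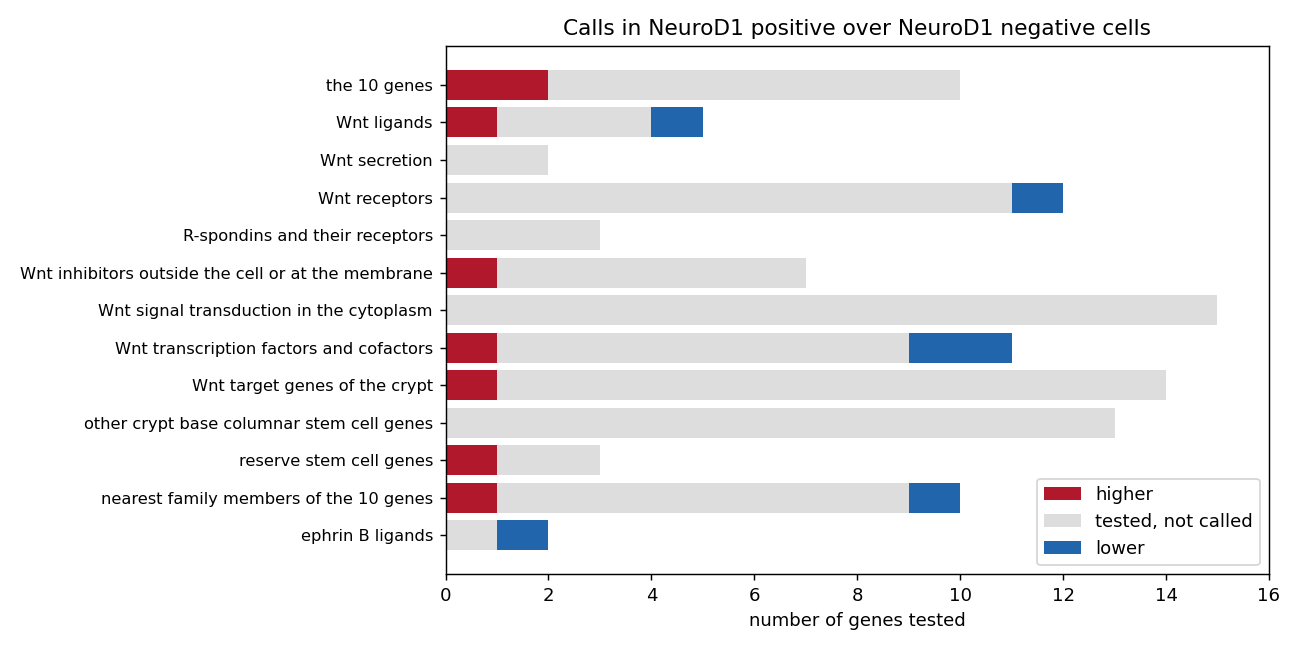
Number of genes tested in each list for NeuroD1 positive over NeuroD1 negative cells, split into those called higher, not called and called lower at an adjusted p under 0.05 in edgeR. Of the 10 genes 2 were called higher, and no list of the pathway had more than 3 calls. Some lists share genes with the 10 and with each other.

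Between the positive populations the pathway lists held further calls. Of 7 inhibitor genes tested Sfrp5 rose and Dkk3 and Sfrp1 fell in NeuroD1 positive over Glu positive cells, with log2 fold changes of 2.81, -2.62 and -2.55 and edgeR adjusted p values of 0.0454, 0.0411 and 0.0337. Each of these 3 calls was lost with the compared groups alone and with 5 of the 6 libraries left out, all but Glu_positive_4665. Sfrp5 was also lost with library totals (0.0911), Dkk3 with upper quartile factors (0.0570), and Dkk3 and Sfrp1 with limma voom (0.136 and 0.378). Of 15 cytoplasmic genes Apc2 rose and Csnk1a1 fell, and of 11 nuclear factors and cofactors Bcl9l rose and Tcf7 fell. The Apc2 call was lost with each of the 6 libraries left out (adjusted p 0.0515 to 0.124) and the Csnk1a1 call with 4 of them (0.122 to 0.237). Both were also lost with limma voom, and with the compared groups alone these 2 and Bcl9l were lost. Rspo4, an R-spondin gene, had 78 counts in NeuroD1 positive libraries and 0 in Glu positive libraries, at least 34.2-fold higher against a floor of 3 counts over the group. In the negative populations Rspo4 had 7 counts in NeuroD1 libraries and 0 in Glu libraries, so no Glu library held any. Of 6 endocrine progenitor genes 1 rose and 1 fell. Neurog3, the factor that commits progenitors to the endocrine lineage, had 26.8, 27.9 and 3.39 CPM in NeuroD1 positive libraries, against 0, 1.03 and 0.303 CPM in Glu positive libraries. That is a log2 fold change of 5.62 ± 1.33 with an adjusted p of 0.0135 in edgeR (0.0523 with limma voom). Insm1, a zinc finger factor of endocrine differentiation, fell: it had 122, 104 and 95.8 CPM in NeuroD1 positive libraries, against 205, 123 and 515 CPM in Glu positive libraries, a log2 fold change of -1.39 ± 0.42 with an adjusted p of 0.0481 in edgeR. The Insm1 call was lost with 4 of the 6 libraries left out, and without Glu_positive_5254 the fold change was -0.62 with an adjusted p of 0.290. Upper quartile factors, limma voom, the compared groups alone and the fit without mt-Rnr1 and mt-Rnr2 also lost it. Gkn3, a gastrokine gene listed among crypt base columnar genes, had 16.5, 27.1 and 36.7 CPM in NeuroD1 positive libraries, against 1.14, 0 and 0 CPM in Glu positive libraries. The log2 fold change was 5.64 ± 1.08 with an adjusted p of 0.00344 in edgeR. Gkn3 was not particular to NeuroD1 positive cells, with 31.9 to 35.1 CPM in NeuroD1 negative and 0.140 to 7.96 CPM in Glu negative libraries. Myc, a target of Wnt signalling that drives growth, had 44.4, 56.5 and 41.1 CPM in NeuroD1 positive libraries, against 140.1, 86.1 and 290.0 CPM in Glu positive libraries. Its log2 fold change was -1.86 ± 0.44 with an adjusted p of 0.0135 in edgeR, and without Glu_positive_5254 it was -1.26 with an adjusted p of 0.0546. The Myc call was also lost without NeuroD1_positive_6360 or NeuroD1_positive_6362, at adjusted p values of 0.0655 and 0.0670.

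**Figure D5:**
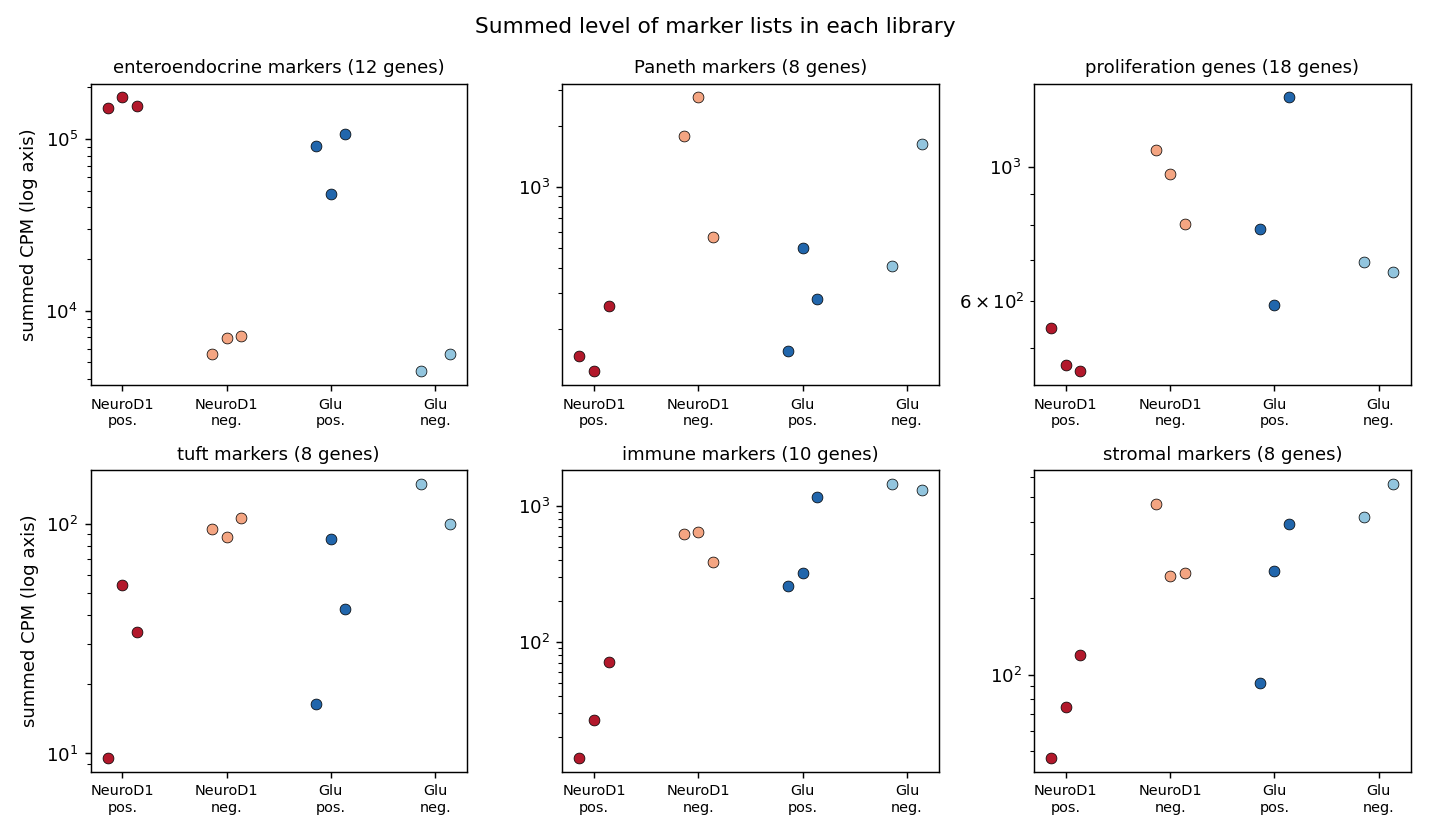
Summed CPM of 6 marker lists in each library on a log axis, with the number of genes in each list in its title. Enteroendocrine markers are high in both positive populations, immune markers are lowest in the 3 NeuroD1 positive libraries, and Glu_positive_5254 has the highest proliferation sum, 1304 CPM.

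Markers of other cells moved with the groups as well. Absorptive cell markers, 9 genes, summed to 2756 to 3544 CPM in NeuroD1 positive libraries, against 4453 to 13670 CPM in NeuroD1 negative libraries, and 7 of the 9 fell. In the Glu comparison 4 of the 9 fell and 1 rose, and between the positive populations none was called. Goblet cell markers, 7 genes, summed to 1458 to 1892 CPM in NeuroD1 positive libraries, against 2531 to 3668 CPM in NeuroD1 negative libraries, and 5 fell and 2 rose. In the Glu comparison 1 of the 7 fell. In NeuroD1 positive over Glu positive cells 5 of the 7 goblet markers and 7 of the 10 immune markers fell. Tuft cell markers, 8 genes, summed to 9.55 to 54.2 CPM in NeuroD1 positive libraries, against 87.4 to 106 CPM in NeuroD1 negative libraries, and 16.4 to 85.8 CPM in Glu positive libraries, against 99.9 to 149 CPM in Glu negative libraries. Stromal markers, also 8 genes, summed to 47.0 to 120 CPM in NeuroD1 positive libraries, against 245 to 472 CPM in NeuroD1 negative libraries, and 92.9 to 394 CPM in Glu positive libraries, against 418 to 564 CPM in Glu negative libraries. The part of these cells in the levels of the 10 genes was not tested. Reads may be shared where exons overlap, since the use of strand in counting is not given in the sources used here: Lrig1 shares 144 exon bases with Slc25a26 on the other strand, Axin2 shares 209 with the antisense gene Gm11670, and Olfm4 shares 153 with Gm6999 on its own strand.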

How the data were processed

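Each library was amplified from 2 ng of RNA, per the labels' protocols. Tools named in the submitters' processing notes are TopHat2 2.1.0, Cufflinks 2.2.1 and CASAVA, and the build is GRCm38. The authors deposited 1 column of expected counts for each library, not whole for 848 genes, and these were rounded. A model of 4 group means over all 11 libraries was fitted in edgeR 4.0.16 (R 4.3.3; TMM, filterByExpr, no replicate block, quasi-likelihood test), and p-values were adjusted over the 14332 genes tested in each of 5 contrasts. The SE is the size of the fold change over the square root of F. The code was tested on simulated counts. Alternatives used other scaling (RLE, upper quartile, library totals), other filters, no mt-Rnr1 or mt-Rnr2, DESeq2 1.42.0, voom in limma 3.58.1, only the groups compared, a replicate block, and leaving out single libraries. The 10 genes and 22 further lists were chosen with earlier results of these data known. The text names all 10 genes, up to 4 called genes of each list by size of change, and relatives of the 10 that passed the filter, and the 3 nearest genes by pattern. A few genes that this rule names are not reported here. Sequences come from RefSeq and exon lengths from GENCODE vM21. Depths of 2279595 to 5722381 counts limit what low genes can show, and since amplified reads are not independent molecules, intervals and floors cover counting error only. Replicates differed beyond sampling noise (chi-square per degree of freedom 15.3 to 135) and none was merged.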

Additional observations from a re-analysis of the deposited data

How the results depend on the processing

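In the NeuroD1 comparison 2 of the 10 genes were called under all alternatives but 2: the stricter filter, which removed Wnt3, and the fit without NeuroD1_negative_6360 each gave 1, so the range with a library left out was 1 to 2. In the Glu comparison and in the interaction the count of 0 became 1, Lgr5, with no filter and with DESeq2, and was 0 with each library left out. Between the positive populations the count of 2 became 1 with limma voom and with the compared groups alone, ranged from 0 to 2 with a library left out, and became 3 with no filter, which added Olfm4 (adjusted p 0.0208). With library totals it was again 2, but Msi1 was lost (0.146) and Olfm4 gained (0.0354). Between the negative populations it was 0 throughout. The causes were not tested. Deviations of same-numbered positive and negative libraries from their group means had correlations of 0.0135 to 0.0801 over 6907 genes, all positive and below 0.1, where the 2 Glu negative libraries mirror each other by construction. Whether a number marks 1 animal is not given in the sources used here, so the libraries were not treated as pairs. With a replicate block the 10 genes gave 2 calls in the NeuroD1 comparison, Wnt3 at 4.48 with an adjusted p of 0.0204 and Msi1 at 3.03 with an adjusted p of 0.00225, and 0 in the Glu comparison and the interaction. Counts over all genes moved more: in the NeuroD1 comparison from 534 to 1318 higher and from 720 to 1383 lower, beside 941 and 1090 as reported, and in the Glu comparison from 108 to 967 higher and from 79 to 587 lower, beside 605 and 346, of which the block gave 195 lower. Between the positive populations they ran from 241 to 860 higher and 243 to 1322 lower, beside 456 and 709, and between the negative populations from 21 to 153 higher and 4 to 92 lower, beside 52 and 18. For the interaction they ran from 5 to 78 higher and 0 to 260 lower, beside 13 and 3.

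With library totals the median of all genes was -0.28 in the NeuroD1 comparison, -0.19 in the Glu comparison, -0.51 between the positive and -0.39 between the negative populations, beside 0.02, 0.12, -0.14 and -0.01 with TMM. Of the values of the 10 genes under the alternatives, 47 turned sign, and 724 kept their sign and side of the threshold. With the sign kept, 12 lost a call and 6 gained one. With library totals the NeuroD1 comparison gave -0.0092 for Ascl2 and -0.14 for Axin2, and limma voom gave -0.10 for Ascl2. Between the positive populations library totals gave -0.036 for Ephb2, -0.21 for Lrig1, -0.28 for Rnf43 and -0.40 for Wnt3. Axin2 there was 0.056 with upper quartile factors, 0.040 with the stricter filter, 0.0098 without mt-Rnr1 and mt-Rnr2 and 0.066 with limma voom. Between the negative populations library totals gave -0.28 for Msi1 and -0.15 for Olfm4.

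With a library left out, log2 fold changes in the NeuroD1 comparison ran from -0.22 to 0.67 for Axin2, -0.41 to 0.85 for Ascl2 and -0.33 to 0.17 for Sox9. In the Glu comparison they ran from -0.40 to 0.31 for Lrig1, -0.64 to 0.48 for Sox9, -0.34 to 1.97 for Axin2 and -6.22 to 0.13 for Wnt11. The interaction ran from -0.59 to 0.53 for Sox9 and -1.73 to 0.57 for Axin2. Between the positive populations the ranges were -0.028 to 0.61 for Ephb2, -0.17 to 0.72 for Rnf43, -0.48 to 1.08 for Axin2, -0.18 to 1.56 for Ascl2, -0.071 to 0.61 for Lrig1 and -0.39 to 1.82 for Wnt3. Between the negative populations they were -0.67 to 0.027 for Rnf43, -0.33 to 0.22 for Msi1, -0.19 to 0.59 for Olfm4, -0.14 to 1.65 for Axin2, -0.63 to 0.018 for Ephb2 and -0.52 to 0.061 for Lrig1. Leaving out 1 Glu negative library leaves 1, whose spread the fit then borrows from the rest. Depth limits Wnt3 and Ascl2 most, with 5 and 9 counts in their lowest groups.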
